A study of Homo sapiens with 9 samples.

Results

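Knockdown of MEP50 was compared with a control hairpin in A549, an established cell line derived from a human lung adenocarcinoma. All 3 libraries labelled as MEP50 knockdown and all 3 labelled as GFP control were taken, which makes 6 of the 9 libraries of the series, and they were compared across all genes. The other 3 libraries came from a PRMT5 knockdown and entered the same fit. Both groups carried a stably expressed short hairpin RNA under puromycin selection and grew in the same serum-containing medium, so hairpin expression, the drug and the medium were shared by control and knockdown. The control hairpin was directed at GFP, the knockdown hairpin at MEP50, and no other allele or agent was given in the labels. The labels describe 1 hairpin group per target, and the hairpin sequences are not given in the sources used here. Loss of MEP50 therefore cannot be told apart from other effects of its hairpin or of the selected cells that carried it. Replicates were labelled as biological replicates without further detail, so the p-values measure the spread between these libraries. The study's title places PRMT5 and MEP50 in a TGF-beta axis of cancer cell invasion, and the groups of genes below were ordered with that question in view.

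MEP50, encoded by WDR77, is a WD-repeat protein that binds PRMT5 and forms with it the methylosome. PRMT5 is the catalytic subunit and transfers methyl groups to arginines, giving symmetric dimethylarginine on histones H2A, H3 and H4 and on the Sm proteins of the splicing machinery. MEP50 holds substrates and is needed for most of the activity of the complex, while adaptors such as COPRS, pICln (CLNS1A) and RIOK1 steer the complex towards histones, Sm proteins and other substrates.

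Reads on genes numbered between 25075508 and 29461432 in control libraries and between 20806181 and 28663624 in knockdown libraries. Levels are given as CPM, a gene's reads scaled to a common library total with TMM factors, and log2 fold changes are given ± SE. A gene was called at a Benjamini-Hochberg adjusted p below 0.05 in edgeR's quasi-likelihood test, and "rose" and "fell" refer to such calls. Reads outside annotated genes made up 12.1 ± 0.295% (SD, n = 3) in the control and 13.2 ± 0.753% in the knockdown, and the ranges of both groups overlapped. These are shares of the reads on genes together with all reads that the counting tool HTSeq assigned to no gene. The identity of the cells was checked with markers. The simple-epithelium keratins KRT8 and KRT18 and E-cadherin (CDH1) were well counted, while EPCAM had 3 to 7 reads and KRT19 0 to 2 reads in each of the 6 libraries. Near-identical pseudogenes may take reads of KRT19, so its low count does not show that it is absent. Of 5 endothelial markers none had enough reads to be tested, and CDH5 and CLDN5 had no read. Of 8 blood markers, CD3E, MS4A1 and HBB had no read and PTPRC had at most 1 read per library, while both blood markers with enough reads, the lysosomal protein gene CD68 (0.78) and the myeloid integrin gene ITGAM (0.69), were called higher. The call of ITGAM (edgeR adjusted p = 0.049) was lost under 6 processing alternatives and without GFP control replicates 2 or 3 or MEP50 knockdown replicates 2 or 3 (adjusted p up to 0.253). The summed level of the blood list was between 15.7 and 17.6 CPM in control libraries, against 25.9 to 29.8 CPM in knockdown libraries.

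The target itself was lowered to about the same extent in every knockdown library. WDR77 (ENSG00000116455) stood at 39.2, 39.6 and 39.3 CPM in control libraries 1, 2 and 3 and at 13.6, 10.7 and 13.3 CPM in knockdown libraries 1, 2 and 3. All 3 knockdown libraries lay far below all 3 control libraries, with 31.8% of the control level left (log2 fold change -1.65 ± 0.075, edgeR adjusted p = 1.35e-21). Its partner PRMT5 stood at 212, 208 and 205 CPM in the control and 211, 199.6 and 200.2 CPM in the knockdown, where the groups overlapped. PRMT5 was not called (log2 fold change -0.03 ± 0.0325, edgeR adjusted p = 0.399).

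Of 13 tested genes of the methylosome and its Sm substrates, 5 rose and 3 fell, with a median log2 fold change of 0.08. Across all 14582 tested genes, 26.5% rose and 25.2% fell, with a median of 0.00. Without GFP control replicate 3, or with no filter on low counts, only 3 methylosome members rose. Besides the target, the genes of 2 adaptors fell and that of the adaptor RIOK1 was called at 0.16 (edgeR adjusted p = 0.0183). COPRS, which directs PRMT5 to histones, fell from 44.4 ± 1.7 to 30.3 ± 3.51 CPM (-0.56 ± 0.066), and CLNS1A, the pICln subunit that presents Sm proteins, fell from 151 ± 5.73 to 121 ± 3.23 CPM (-0.32 ± 0.0366). The Sm core gene SNRPE rose slightly, from 162 ± 4.36 to 196 ± 7.04 CPM (0.27 ± 0.0354). Among 6 other arginine methyltransferase genes, 3 rose and none fell. CARM1, which places asymmetric marks and acts as a transcriptional coactivator, rose from 63.5 ± 4.12 to 98.8 ± 3.39 CPM (0.64 ± 0.0499, edgeR adjusted p = 1.29e-13). PRMT1, the main enzyme of asymmetric dimethylation, rose by 0.16 on the log2 scale. The third, PRMT2, was called at 0.16 in the fit of all libraries, but its call was lost under 8 processing alternatives and without GFP control replicates 1 or 2 or MEP50 knockdown replicate 3 (0.06, edgeR adjusted p = 0.558).

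About as many tested genes differed between the knockdown and the control as did not, and most differences were small. In all, 7540 of 14582 genes (51.7%) were called, 3865 higher and 3675 lower. The 3 values of one group all lay above or all below those of the other for 8304 genes (56.9%). Of the called genes, 2549 (33.8%) differed by less than 1.2-fold and 2713 (36.0%) by 1.2-fold to 1.5-fold. A change of at least 2-fold was reached by 545 genes that rose (3.74%) and 550 that fell (3.77%), and a change of at least 8-fold by 47 and 52.

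**Figure D1:**
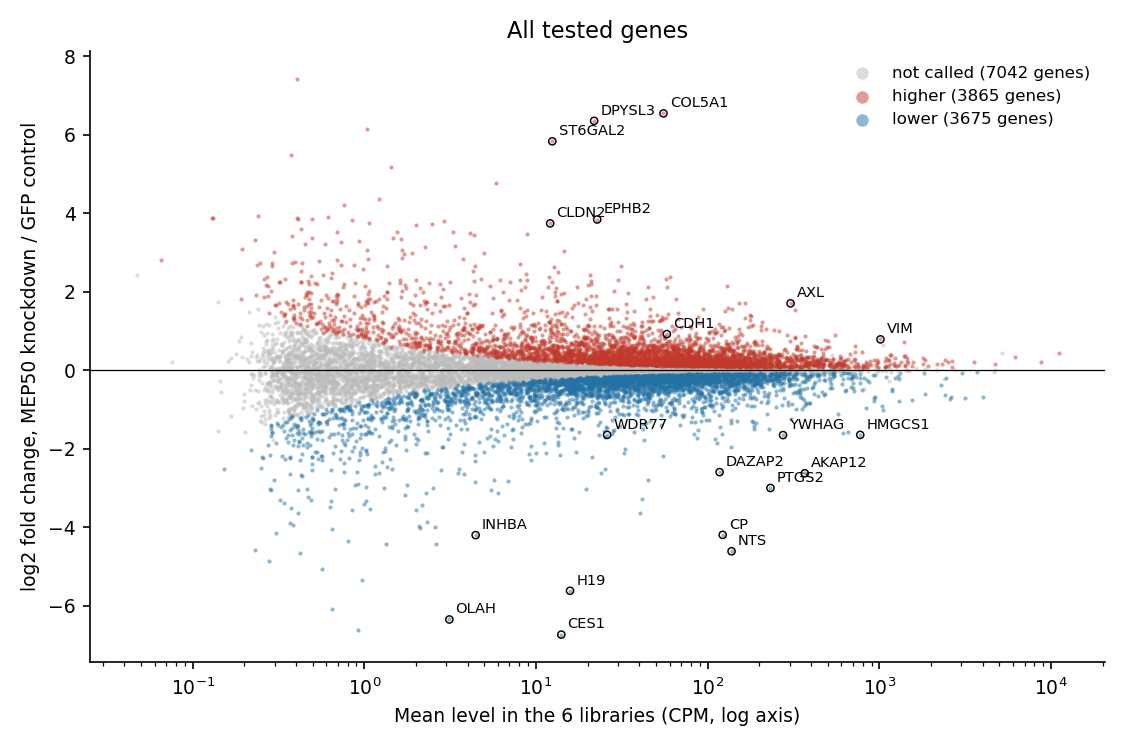
Log2 fold change of each of the 14582 tested genes (vertical axis) against its mean level in the 6 libraries in CPM (horizontal axis, log scale). Red points rose (3865 genes), blue points fell (3675) and grey points were not called. Named genes are circled, and large changes are seen on both sides of 0.

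The gene with the largest rise among those with a mean of at least 1 CPM was COL5A1, which encodes a chain of the fibril-regulating type V collagen. It had 1.4, 0.977 and 1.16 CPM in the control libraries and 110, 109 and 108 CPM in the knockdown libraries. DPYSL3, which encodes a phosphoprotein of growth cones and the cytoskeleton, had 0.678, 0.202 and 0.724 CPM and 40.8, 42.4 and 46 CPM. ST6GAL2, a sialyltransferase gene, had 0.518, 0.472 and 0.29 CPM and 25, 22.6 and 25.7 CPM. In each of these genes the lowest knockdown library stood many times above the highest control library, with log2 fold changes of 6.54 ± 0.0819, 6.35 ± 0.149 and 5.83 ± 0.17. In the PRMT5 knockdown the same genes stood at 6.05, 5.28 and 4.25 against the same controls. The rises that followed included genes of cell adhesion and guidance. The microtubule-associated guidance gene NAV2 rose from 0.424 ± 0.202 to 11.3 ± 0.889 CPM and the ephrin receptor gene EPHB2 from 2.95 ± 0.483 to 42.5 ± 1.99 CPM. CLDN2, which encodes a pore-forming claudin of tight junctions, rose from 1.69 ± 0.326 to 22.5 ± 0.81 CPM (3.74 ± 0.131). P4HA3, a subunit of the prolyl hydroxylase that matures collagen, rose from 0.387 ± 0.151 to 5.41 ± 0.616 CPM (3.79 ± 0.282). BAAT, the enzyme that conjugates bile acids, rose from 0.346 ± 0.115 to 4.6 ± 0.679 CPM. Few control reads lay under 4 others. The count ratio of knockdown to control was 83.3 for EVA1A (144 against 2 reads, 95% counting interval 22.6 to 694) and 38.2 for the cadherin gene CDH11 (198 against 6 reads, 17.2 to 105). It was 21.2 for DCDC1 (165 against 9 reads, 10.9 to 47.2) and 13.7 for the transporter gene SLC17A3 (142 against 12 reads, 7.6 to 27.1).

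The largest falls were led by genes of secreted and metabolic proteins. The carboxylesterase gene CES1 had 28.4, 28.3 and 26.8 CPM in the control libraries and 0.29, 0.374 and 0.141 CPM in the knockdown libraries. Neurotensin (NTS), a secreted peptide, had 259, 271 and 263 CPM and 10.1, 11.3 and 10.9 CPM. Ceruloplasmin (CP), the copper-carrying ferroxidase of plasma, had 224, 234 and 237 CPM and 11.9, 13.5 and 12.5 CPM. No knockdown library of these genes held more than a small share of the lowest control library, and the log2 fold changes were -6.74 ± 0.189, -4.62 ± 0.0605 and -4.20 ± 0.0566. In the PRMT5 knockdown CES1, NTS and CP stood at -8.37, -4.58 and -5.15 against the same controls. OLAH, a thioesterase gene of fatty acid synthesis, had 5 reads left against 511 (count ratio 0.0113, 95% counting interval 0.00366 to 0.0266). The keratin gene KRT20 had 8 reads left against 210 (0.0441, 0.0188 to 0.0885) and the killer lectin receptor gene KLRC2 had 16 against 412 (0.0449, 0.0254 to 0.0738). KLRC2 has close paralogs that can share its reads. LINC03040 had 17 reads left against 331 (0.0594, 0.0342 to 0.0966), and SCAT8, annotated as antisense, 17 against 320 (0.0615, 0.0354 to 0.1). The strand setting of the counting is not given in the sources used here, so reads of SCAT8 and of the gene opposite to it cannot be told apart. The imprinted noncoding RNA H19 fell from 30.9 ± 1.91 to 0.613 ± 0.197 CPM (-5.62 ± 0.152), and the potassium channel gene KCNJ2 from 4.84 ± 0.386 to 0.308 ± 0.0891 CPM (-4.00 ± 0.291).

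Genes that changed by at least 2-fold were also found among those with many reads. The receptor tyrosine kinase gene AXL had 145, 146 and 137 CPM in the control and 463, 466 and 465 CPM in the knockdown (1.70 ± 0.0299). The chromatin protein gene HMGB3 rose from 165 ± 3.35 to 476 ± 24.3 CPM and GLO1, the glyoxalase that detoxifies methylglyoxal, from 129 ± 6.25 to 279.5 ± 8.54 CPM. GALNT10, which starts mucin-type O-glycans, PLOD2, which hydroxylates lysines of collagen, and the spindle protein gene SPDL1 rose 2.01-fold, 2.04-fold and 2.02-fold. Falls of this kind included clusterin (CLU), a secreted chaperone, from 978 ± 23.1 to 326 ± 6.05 CPM (-1.59 ± 0.0297). The actin-binding scaffold gene PDLIM5 fell from 921 ± 11.6 to 305 ± 16.6 CPM, TFPI2, a secreted protease inhibitor, from 782 ± 20.8 to 362 ± 6.93 CPM, and the glucose transporter gene SLC2A3 from 430.3 ± 9.32 to 181 ± 7.44 CPM. AKAP12, a kinase-anchoring scaffold that is also listed among metastasis suppressors, had 625, 645 and 628 CPM in the control and 108, 97 and 102 CPM in the knockdown (-2.63 ± 0.0345). Its knockdown libraries lay at about the same low level.

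**Figure D2:**
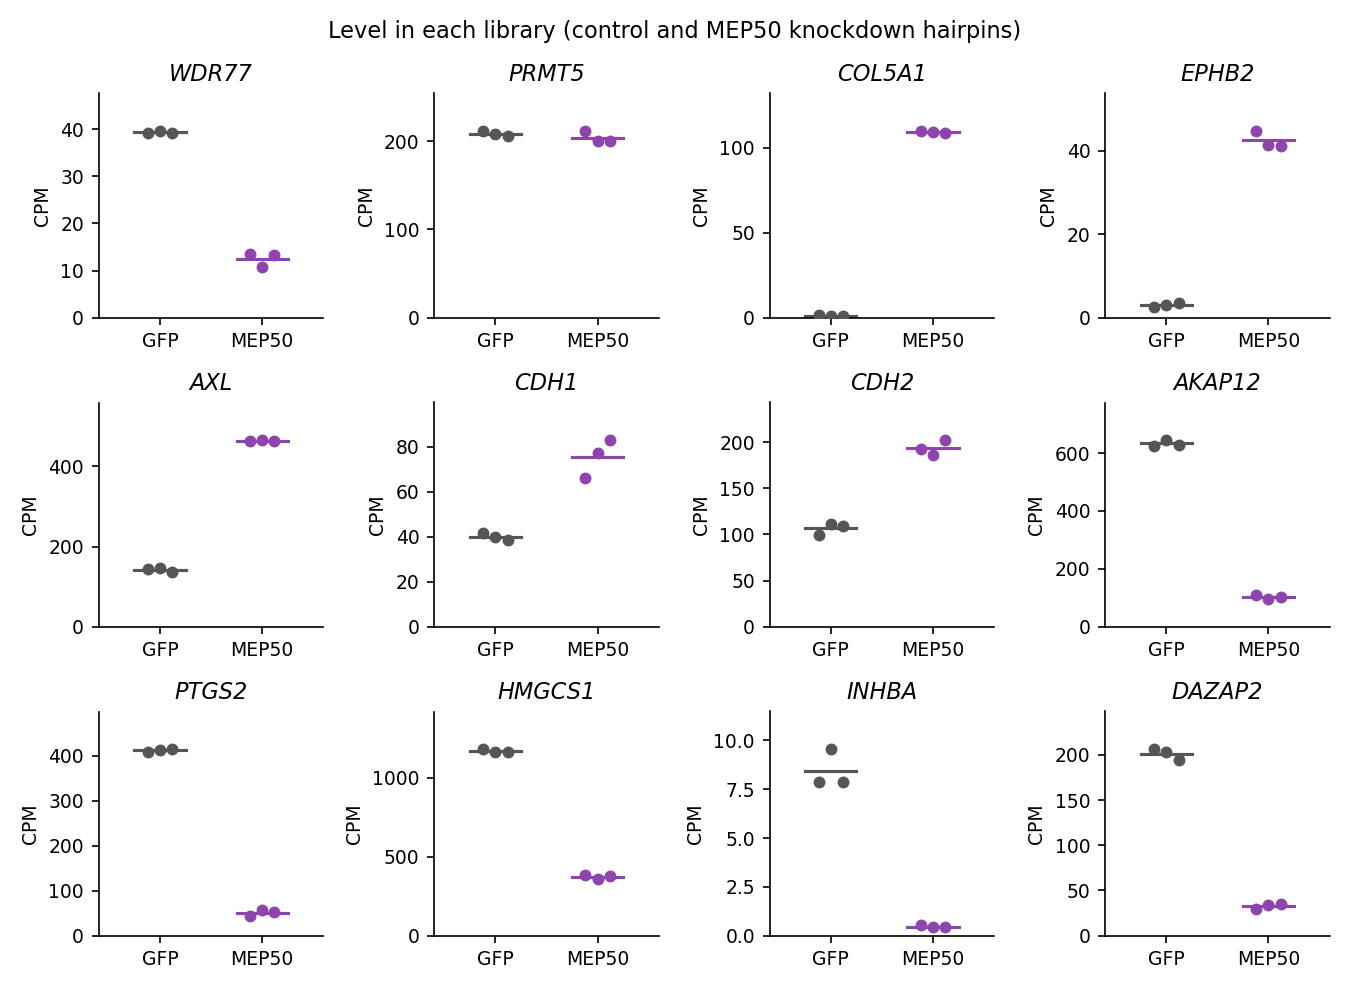
Level in CPM (vertical axes from 0) of 12 genes in each of the 3 control libraries (grey) and 3 MEP50 knockdown libraries (purple), with short lines at the means. The groups overlap for PRMT5 and for none of the other 11 genes.

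Of 15 tested genes of TGF-beta ligands, receptors and latency, 10 rose and 5 fell (median 0.51). The ligand gene TGFB1 had 107, 112 and 119 CPM in the control libraries and 238, 262 and 240.1 CPM in the knockdown libraries, with a log2 fold change of 1.13 ± 0.0379. TGFB2 rose from 22.1 ± 0.787 to 34.7 ± 1.96 CPM (0.65 ± 0.0613). LTBP1, which binds latent TGF-beta in the matrix, rose from 12.8 ± 1.51 to 28.1 ± 2.62 CPM (1.12 ± 0.0895), a change not seen in the PRMT5 knockdown (-0.03; difference between the knockdowns 1.15 ± 0.0891, edgeR adjusted p = 7.32e-14). The coreceptor betaglycan (TGFBR3) fell from 35.3 ± 1.35 to 11.2 ± 1.42 CPM (-1.64 ± 0.0842), and the decoy receptor gene BAMBI from 37.2 ± 1.03 to 13.7 ± 0.419 CPM (-1.44 ± 0.0799). The 3 knockdown libraries of TGFBR3 and BAMBI lay below all control libraries.

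Of 19 SMADs and feedback targets of TGF-beta, 13 rose and 2 fell (median 0.55). PMEPA1, a target that holds receptor SMADs back, had 67.5, 70.1 and 71.7 CPM in the control and 205, 205 and 207 CPM in the knockdown (1.56 ± 0.0359). The protease inhibitor gene SERPINE2 rose from 6.46 ± 1.03 to 34.5 ± 2.35 CPM (2.41 ± 0.0906). TGFBI, a matrix protein gene named for its induction by TGF-beta, rose from 85.8 ± 3.04 to 181 ± 4.81 CPM (1.08 ± 0.0379; PRMT5 knockdown 0.23; difference 0.84 ± 0.0373). JUNB, an AP-1 subunit, rose by 0.88, while it stood at -0.19 in the PRMT5 knockdown (difference 1.07 ± 0.0603, edgeR adjusted p = 6.27e-18).

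The activin and BMP branch leaned the other way. Of 27 tested genes, 8 rose and 13 fell (median -0.15), and 5 rose when GFP control replicate 2 or MEP50 knockdown replicate 1 was left out. The activin subunit gene INHBA had 7.86, 9.57 and 7.89 CPM in the control libraries and 0.531, 0.42 and 0.422 CPM in the knockdown libraries (-4.20 ± 0.23). The other activin subunit gene, INHBB, fell from 15.5 ± 0.473 to 3.07 ± 1.01 CPM (-2.30 ± 0.135). INHBB stood at 12.8 ± 0.46 CPM in the PRMT5 knockdown, and the knockdowns differed by -2.02 ± 0.137 (edgeR adjusted p = 1.80e-15). The ligand gene BMP7 fell by 3.56-fold, to 0.607 ± 0.0271 CPM, and ID4, a BMP target that blocks bHLH factors, by 4.17-fold, to 0.389 ± 0.128 CPM.

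Genes of the mesenchymal state were mostly higher. Of 17 tested factors of epithelial-mesenchymal transition and mesenchymal markers, 13 rose and 2 fell (median 0.86). Only 1 fell without GFP control replicate 2 or MEP50 knockdown replicate 2. N-cadherin (CDH2) had 99.2, 112 and 109 CPM in the control and 193, 186 and 203 CPM in the knockdown, and the intermediate filament gene VIM had 743, 737 and 753 CPM and 1265, 1300 and 1283 CPM. Neither gene's groups overlapped, and the log2 fold changes were 0.86 ± 0.0403 and 0.79 ± 0.0257. Fibronectin (FN1) rose from 7.45 ± 0.225 to 20.8 ± 2.53 CPM (1.48 ± 0.0996), and the ectonucleotidase gene NT5E (CD73) from 13.9 ± 0.464 to 54.6 ± 6.07 CPM (1.97 ± 0.0764). Among the transcription factors, ZEB2 rose from 3.5 ± 0.234 to 12 ± 1.27 CPM (1.78 ± 0.125) and FOXC2 from 0.372 ± 0.142 to 2.34 ± 0.56 CPM (2.66 ± 0.334). ZEB1 stood at 61.4 ± 4.77 and 64.4 ± 3.13 CPM and was not called (edgeR adjusted p = 0.262). SNAI1 fell from 7.45 ± 0.53 to 4.76 ± 0.47 CPM (-0.65 ± 0.139). SNAI2 rose at a low level, with 53 reads against 15 (count ratio 4.09, 95% counting interval 2.27 to 7.81). Markers of fibroblasts and stroma moved with these genes. All 4 of 10 stroma markers with enough reads (LUM, COL3A1, COL1A1 and PDGFRA) rose, and the list summed to between 107.8 and 110.3 CPM in control libraries, against 272.7 to 290.8 CPM in knockdown libraries. This sum was made up mostly of COL3A1, and COL3A1 and COL1A1 are also counted among the collagen chains below. FAP and THY1 had no read in any of the 6 libraries, DCN had 1 read in all, and COL1A2, COL6A3 and PDGFRB had 0 to 4 reads each. The part of the stroma markers in the mesenchymal change was not tested.

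Epithelial genes went both ways. Of 26 tested keratin, junction and regulator genes, 12 rose and 10 fell (median 0.23). E-cadherin (CDH1) had 41.7, 40.0 and 38.4 CPM in the control libraries and 66.3, 77.2 and 83 CPM in the knockdown libraries, a rise of 0.92 ± 0.0641 (edgeR adjusted p = 8.74e-14) without overlap. In the PRMT5 knockdown CDH1 had 37.1, 32.3 and 35.3 CPM, and it differed between the knockdowns by 1.12 ± 0.0646 (edgeR adjusted p = 2.42e-15). CDH1 and CDH2 thus both rose in the MEP50 knockdown. The keratins KRT8 and KRT18, which pair in simple epithelia, fell from 3221 ± 76.3 to 1930 ± 58 CPM (-0.74 ± 0.0246) and from 3193 ± 41.1 to 2005 ± 96.8 CPM (-0.67 ± 0.0273). KRT80 rose from 103 ± 1.85 to 249 ± 1.27 CPM (1.27 ± 0.0317), and KRT7 from 2.52 ± 0.353 to 4.19 ± 0.579 CPM. Plakoglobin (JUP), which links junctions to filaments, fell from 146 ± 4.03 to 71.2 ± 2.96 CPM, and the epithelial transcription factor ELF3 from 58.2 ± 2.63 to 28.8 ± 2.3 CPM (-1.03 and -1.02). The 6 epithelial line markers summed to between 6341 and 6571 CPM in control libraries, against 3867 to 4144 CPM in knockdown libraries, a sum made up mostly of KRT8 and KRT18.

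Collagen chains stood out by their number. Of 19 tested chains, 17 rose and 1 fell, the median was 1.29, and 12 rose by at least 2-fold, against 3.74% of all tested genes. None fell without GFP control replicate 1 or MEP50 knockdown replicate 3. Against the same controls 15 of the 19 chains rose and 1 fell in the PRMT5 knockdown (median 0.91). COL4A1, a chain of basement membrane collagen, had 120, 129.8 and 120.3 CPM in the control and 290.4, 286 and 290.3 CPM in the knockdown (1.23 ± 0.0329). The fibrillar chains COL3A1 and COL1A1 rose from 96.5 ± 0.502 to 256 ± 8.83 CPM and from 6.87 ± 0.735 to 18.8 ± 0.854 CPM. COL16A1 rose from 5.48 ± 1.51 to 20.4 ± 1.4 CPM, the transmembrane collagen COL13A1 from 0.256 ± 0.0218 to 2.67 ± 0.387 CPM and COL4A4 from 0.562 ± 0.35 to 2.04 ± 0.394 CPM. Lumican (LUM), a proteoglycan that binds collagen fibrils, rose from 5.17 ± 0.646 to 7.89 ± 0.167 CPM (0.61 ± 0.153).

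Integrins, laminins and proteases were split. Of 25 integrin and laminin genes 9 rose and 8 fell (median 0.05). The collagen receptor subunit ITGA10 rose from 1.00 ± 0.316 to 4.52 ± 1.33 CPM. ITGB6, part of an integrin that activates latent TGF-beta, rose from 4.75 ± 1.06 to 8.87 ± 0.121 CPM and the laminin receptor subunit ITGA3 from 60.0 ± 1.39 to 109 ± 3.68 CPM. Of 29 metalloprotease, TIMP and plasminogen genes 11 rose and 13 fell (median -0.09). ADAM19 rose from 3.01 ± 0.138 to 14.8 ± 0.406 CPM (2.29 ± 0.135) and the matrix protease gene ADAMTS6 from 0.399 ± 0.073 to 2.93 ± 0.311 CPM, while ADAM23, which lacks protease activity and binds integrins, fell from 33.4 ± 2.33 to 12.7 ± 1.11 CPM (-1.39 ± 0.0801).

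Guidance genes of neurons were more often higher than lower. Of 51 tested axon guidance genes 23 rose, 13 of them by at least 2-fold, and 9 fell, 6 of them by at least 2-fold (median 0.26). Over all tested genes 26.5% rose and 25.2% fell, and 3.74% and 3.77% did so by at least 2-fold. EPHB2 had 2.47, 2.93 and 3.44 CPM in the control and 44.8, 41.5 and 41.2 CPM in the knockdown (3.84 ± 0.0959). The semaphorin gene SEMA3E had 2.51, 4.01 and 2.82 CPM and 26.2, 25.5 and 26.2 CPM (3.04 ± 0.11). These groups were far apart in both genes. Of 32 potassium and calcium channel genes 13 rose, 5 of them by at least 2-fold, and 10 fell, 6 of them by at least 2-fold (median 0.36). The fall of KCNJ2 is given above. The voltage-gated channel gene KCNH1 rose from 0.281 ± 0.0799 to 3.7 ± 0.606 CPM, the calcium channel gamma subunit CACNG4 from 0.522 ± 0.0761 to 6.04 ± 0.335 CPM and the calcium-activated channel KCNN4 from 0.665 ± 0.185 to 2.67 ± 0.28 CPM. Neuronal markers themselves did not rise as a group. MAP2, a microtubule-binding protein of dendrites, fell from 183 ± 6.94 to 59.3 ± 2.98 CPM (-1.62 ± 0.0433) and synaptophysin (SYP) from 2.79 ± 0.445 to 1.62 ± 0.295 CPM. ELAVL4 had no read in the 6 libraries and RBFOX3 0 to 4 reads each. The remaining neuronal marker with enough reads, TUBB3, was called at 0.88, and this call was lost with DESeq2, without GFP control replicates 1 or 2 and without MEP50 knockdown replicates 2 or 3.

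**Figure D3:**
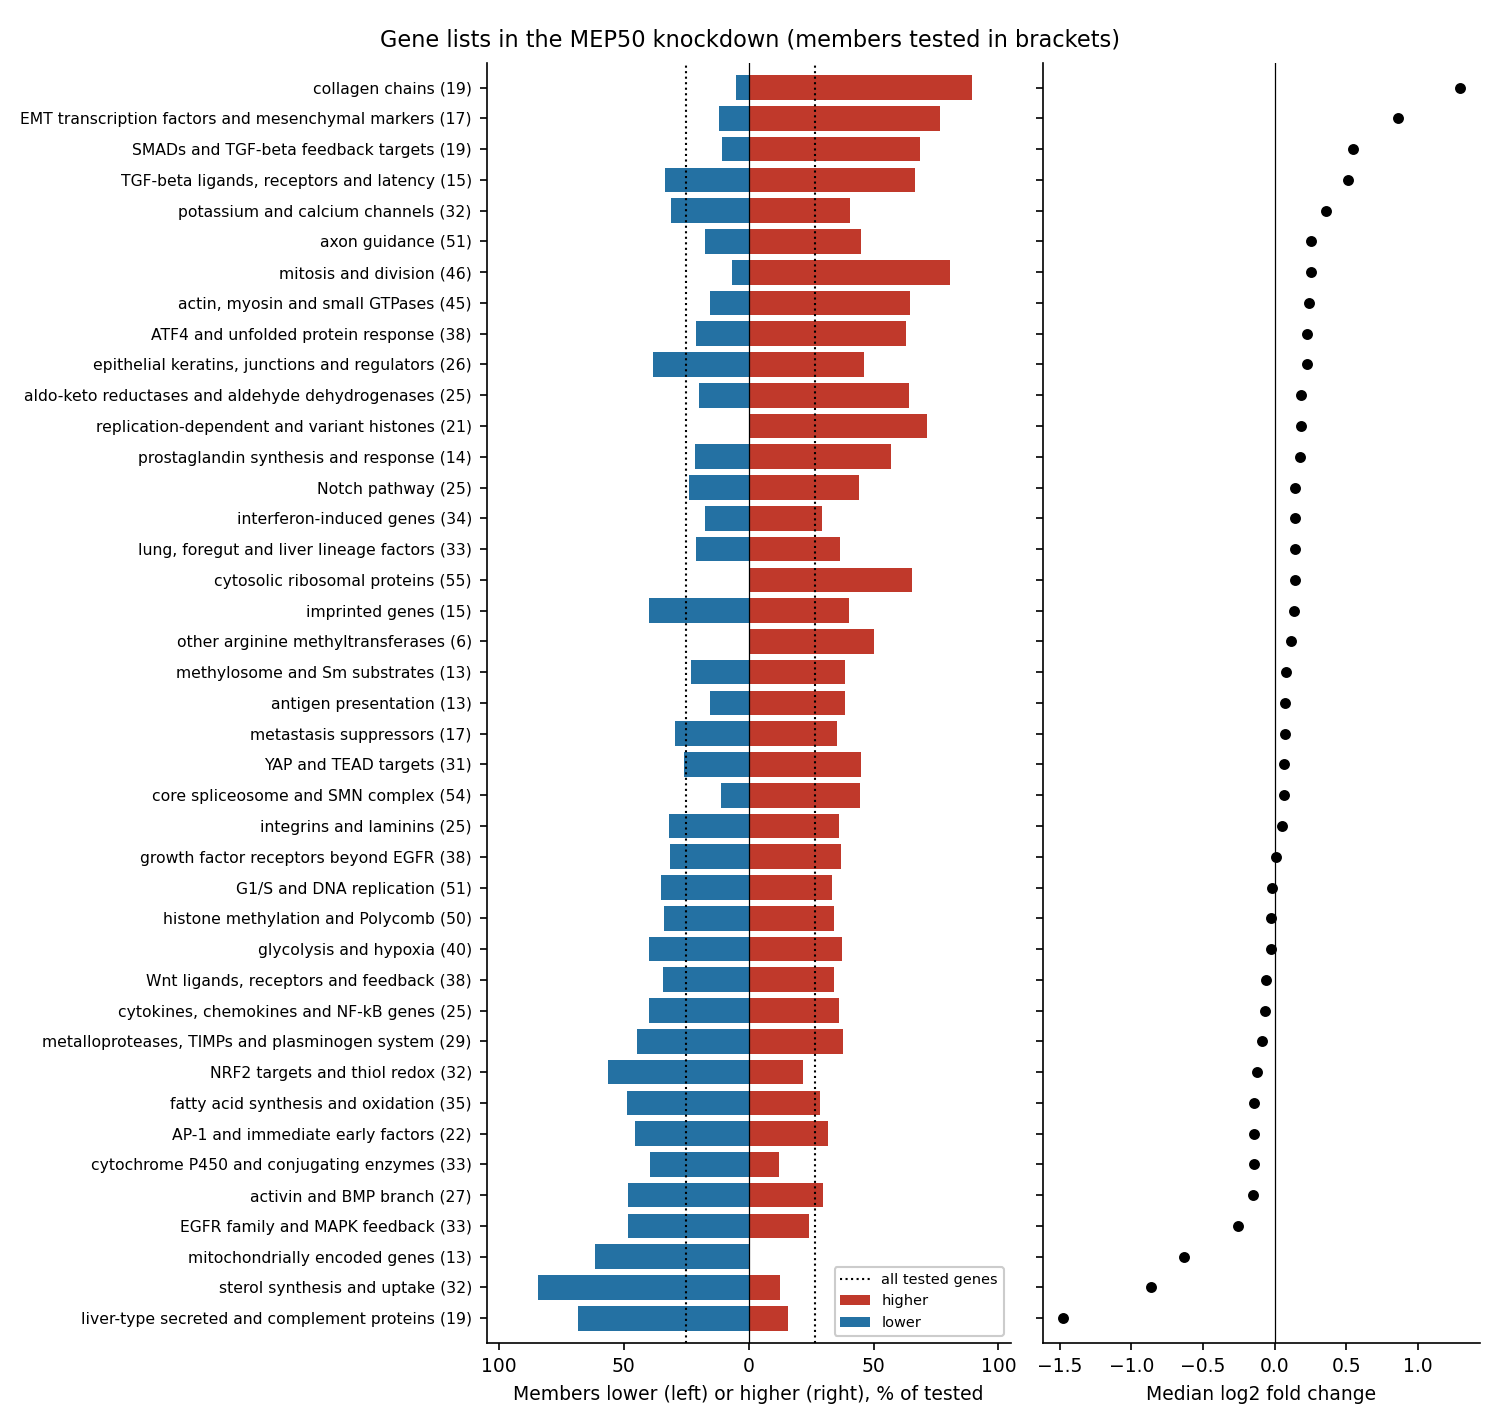
Share of the tested members of each gene list that rose (red, to the right) or fell (blue, to the left), in percent, with dotted lines at the shares over all tested genes (26.5% and 25.2%), and on the right the median log2 fold change of each list. Lists with at least 5 tested members are shown, apart from 1 list not reported here, and collagen chains (17 of 19 higher) and sterol genes (27 of 32 lower) lie near the ends.

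Secreted proteins, most of them typical of liver, which A549 cells also make, mostly fell. Of 19 tested genes 3 rose and 13 fell, 12 of them by at least 2-fold, against 3.77% of all tested genes (median -1.48). The 35 matched names of this list include 16 with too few reads to be tested. In the PRMT5 knockdown 1 of the 19 genes rose and 14 fell against the same controls (median -1.22). Fibrinogen beta (FGB) had 76.1, 73.6 and 73.5 CPM in the control libraries and 5.26, 5.84 and 6.62 CPM in the knockdown libraries (-3.64 ± 0.0797), and fibrinogen gamma (FGG) fell from 4.36 ± 0.503 to 0.286 ± 0.126 CPM (-3.86 ± 0.345). With NTS and CP above, these are the members with the largest falls. NTS, a secreted peptide, is counted in this list although it is not a typical liver or complement protein. With no filter on low counts the median moved to -0.58 and 5 members rose.

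Of 14 genes of prostaglandin synthesis and response, 8 rose and 3 fell (median 0.18). The 3 that fell were PTGS2, PLA2G4A and the prostaglandin E synthase gene PTGES, and the synthase genes PTGES2 and PTGES3 were called higher at 0.25 and 0.13. The inducible cyclooxygenase gene PTGS2 had 409, 412 and 416 CPM in the control and 44.7, 57.1 and 52.3 CPM in the knockdown (-3.00 ± 0.0601). PTGS2 stood at -4.995 in the PRMT5 knockdown. PLA2G4A, the phospholipase that frees arachidonic acid, fell from 125 ± 3.13 to 59.2 ± 3.18 CPM (-1.07 ± 0.0478). HPGD, which inactivates prostaglandins, rose from 6.44 ± 0.816 to 28.2 ± 1.47 CPM (2.13 ± 0.0903), and the receptor gene PTGER2 from 0.713 ± 0.0657 to 1.53 ± 0.142 CPM.

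Of 25 cytokine, chemokine and NF-kB genes 9 rose and 10 fell (median -0.07, which turned to 0.04 and 0.13 without GFP control or MEP50 knockdown replicate 3). LIF, an interleukin-6 family cytokine, fell from 112 ± 4.93 to 49.4 ± 2.28 CPM (-1.18 ± 0.0446), and the chemokine gene CXCL8 from 3.63 ± 0.469 to 0.875 ± 0.444 CPM. CXCL2 rose from 0.93 ± 0.198 to 6.59 ± 0.726 CPM and the cytokine gene IL32 from 4.72 ± 0.362 to 9.87 ± 1.32 CPM. Interferon-induced genes were close to the background, with 10 of 34 higher and 6 lower (median 0.14). OAS1, which senses double-stranded RNA, fell from 132 ± 4.65 to 71.2 ± 1.5 CPM (-0.90 ± 0.0423), while the guanylate-binding protein gene GBP3 rose from 0.351 ± 0.104 to 2.96 ± 0.0558 CPM and LGALS3BP from 25.5 ± 1.42 to 43.8 ± 4.21 CPM. The helicase gene DDX60 rose by 0.61. Of 13 antigen presentation genes 5 rose and 2 fell (median 0.07), led by the peptide-trimming protease gene ERAP1, from 21.5 ± 0.395 to 35.9 ± 2.5 CPM. The list has 22 matched names, and the others had too few reads to be tested. Among these, HLA-B had 0 to 4 and HLA-C 0 to 5 reads in each of the 6 libraries. Leaving out any of GFP control replicates 1, 2 or 3 or MEP50 knockdown replicate 2 left 3 that rose, and 1 fell without GFP control replicate 1 or MEP50 knockdown replicate 2.

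Most genes of cholesterol synthesis fell. Falls were found for 27 of the 32 tested genes of sterol synthesis and uptake, and 4 rose (median -0.86), and 11 fell by at least 2-fold. HMGCS1, the synthase at the start of the pathway, had 1184, 1165 and 1166 CPM in the control libraries and 385, 360.2 and 375 CPM in the knockdown libraries (-1.65 ± 0.0285, edgeR adjusted p = 1.09e-35). MVD, which decarboxylates mevalonate diphosphate, fell from 77.2 ± 1.85 to 29.2 ± 1.75 CPM (-1.40 ± 0.0562). ABCA1, the exporter of cholesterol to apolipoproteins, rose from 7.26 ± 1.24 to 34.8 ± 4.23 CPM (2.27 ± 0.0964), and PMVK, the phosphomevalonate kinase of the synthesis pathway, rose by 0.46 on the log2 scale. In the PRMT5 knockdown 4 of the 32 genes also rose and 27 fell against the same controls (median -0.58, background 26.1% and 24.9%). Between the knockdowns, 14 of the 32 genes were lower and 5 higher with MEP50 than with PRMT5 hairpins (background 19.2% and 20.5% of all tested genes).

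**Figure D4:**
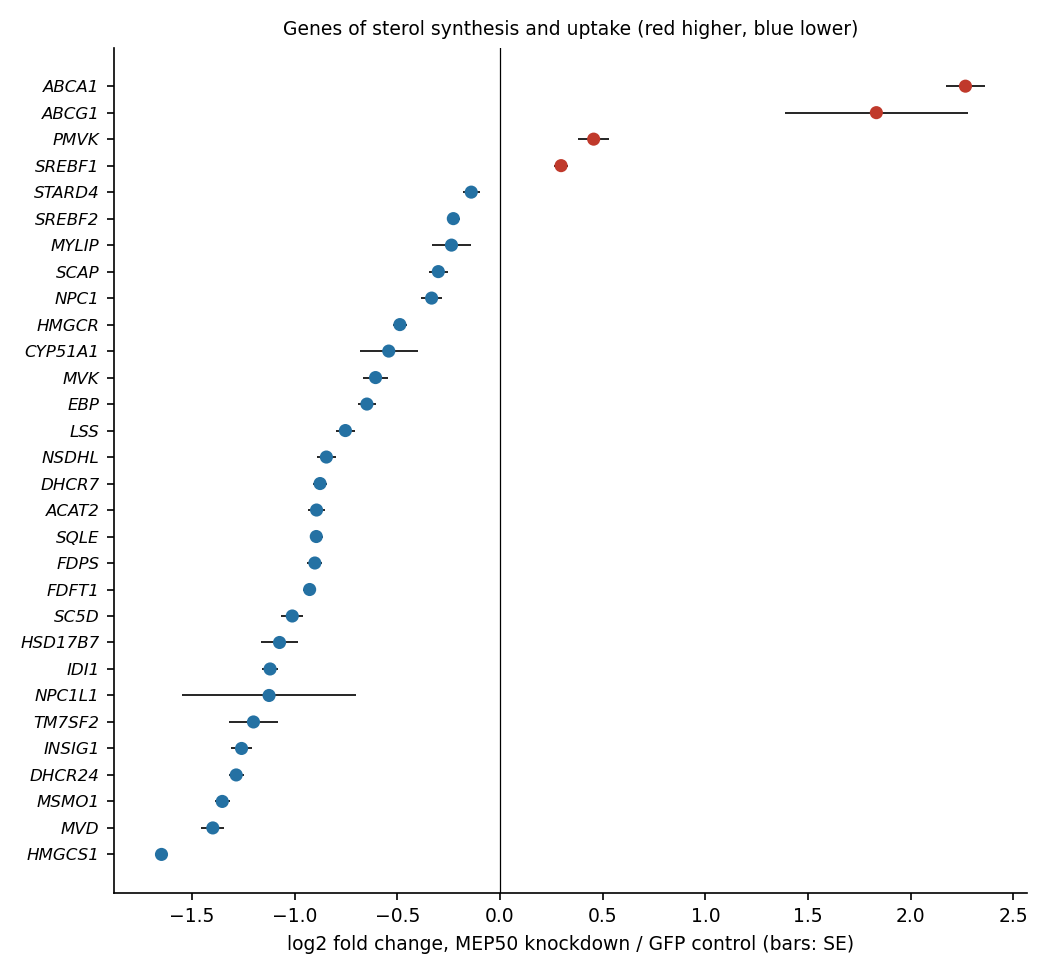
Log2 fold change (horizontal axis, MEP50 knockdown over GFP control, bars show SE) of 30 of the 32 tested genes of sterol synthesis and uptake, ordered by value. The 26 blue genes fell and the 4 red genes rose.

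Of 35 genes of fatty acid synthesis and oxidation, 10 rose and 17 fell (median -0.15). ACSS2, which makes acetyl-CoA from acetate, fell from 42 ± 0.601 to 14.6 ± 0.656 CPM (-1.52 ± 0.071) and the lipase gene PNPLA3 from 3.84 ± 0.476 to 1.82 ± 0.816 CPM. The elongase gene ELOVL2 rose from 71.4 ± 0.833 to 142 ± 0.417 CPM (0.99 ± 0.0371).

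Of 32 genes of thiol redox and of the NRF2 response to oxidants, 7 rose and 18 fell (median -0.12). A549 cells are known for a constantly active NRF2 pathway. The glutathione peroxidase gene GPX2 fell from 44.7 ± 0.772 to 16.6 ± 1.23 CPM (-1.43 ± 0.0784). Thioredoxin reductase (TXNRD1) had 2958, 2891 and 2899 CPM in the control and 1866, 1871 and 1928 CPM in the knockdown (-0.63 ± 0.024). The autophagy receptor gene SQSTM1 fell from 842 ± 7.88 to 580.5 ± 27.6 CPM. Of 25 aldo-keto reductases and aldehyde dehydrogenases 16 rose and 5 fell (median 0.18). The steroid-reducing AKR1C3 fell from 1348 ± 38.1 to 721 ± 17.7 CPM and AKR1C4 from 9.98 ± 0.323 to 1.43 ± 0.182 CPM. Reads can be shared within the near-identical AKR1C family. AKR1B10 rose from 1046 ± 7.54 to 1737 ± 35.5 CPM, and ALDH1L2, the mitochondrial enzyme of folate oxidation, had 143, 144 and 139 CPM in the control and 270.1, 301 and 308 CPM in the knockdown (1.05 ± 0.036; PRMT5 knockdown 0.28; difference 0.77 ± 0.0354). Of 33 cytochrome P450 and conjugating enzymes 4 rose and 13 fell (median -0.15). CYP4F11 fell from 130.4 ± 3.04 to 53 ± 0.754 CPM and the oxysterol hydroxylase gene CYP39A1 from 2.53 ± 0.252 to 0.903 ± 0.196 CPM, while the retinoic acid hydroxylase gene CYP26B1 rose from 9.07 ± 0.487 to 23.4 ± 0.20 CPM.

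BTG2, an antiproliferative gene, rose from 29 ± 3.29 to 58.5 ± 0.726 CPM (1.02 ± 0.061). The cell cycle inhibitor gene CDKN1A rose from 103 ± 2.67 to 163 ± 12.5 CPM with no overlap (0.67 ± 0.0421). In the PRMT5 knockdown CDKN1A had 97.5, 92.4 and 92.5 CPM, and the difference between the knockdowns was 0.80 ± 0.0422 (edgeR adjusted p = 4.16e-18). GDF15, a stress cytokine, fell from 65.2 ± 2.47 to 33.5 ± 3.25 CPM (-0.96 ± 0.0611).

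Mitotic genes rose by small amounts. Of 46 genes of mitosis and division 37 rose and 3 fell (median 0.25), and no member reached 2-fold. In a fit of the 6 libraries alone or with no filter on low counts 5 fell, and without GFP control replicate 3 only 1 fell. CDC20, an activator of the anaphase-promoting complex, had 142, 140.4 and 148 CPM in the control and 238, 229 and 224 CPM in the knockdown (0.68 ± 0.0339). Survivin (BIRC5), the kinesin gene KIF20A and the kinase gene AURKB rose by 0.64, 0.63 and 0.61. Genes of the step into S phase were split, with 17 of 51 higher and 18 lower (median -0.02, which turned to 0.0033 without GFP control replicate 3 and to 0.02 without MEP50 knockdown replicate 2). Cyclin E1 (CCNE1) fell from 26.9 ± 2.83 to 13.3 ± 0.93 CPM (-1.01 ± 0.0902) and cyclin D3 (CCND3) from 181 ± 0.717 to 106 ± 3.99 CPM. The uracil glycosylase gene UNG fell from 86.9 ± 0.729 to 56 ± 0.945 CPM (-0.63 ± 0.0431), against 0.22 in the PRMT5 knockdown (difference -0.85 ± 0.0426). MYC fell by 1.24-fold. CDKN2C, an inhibitor of CDK4 and CDK6, rose from 16.2 ± 0.705 to 28.3 ± 1.14 CPM (0.81 ± 0.0742).

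Of 21 histone genes 15 rose and none fell (median 0.18), and 1 fell with upper-quartile or library-total scaling, with no filter on low counts and without GFP control replicate 2 or MEP50 knockdown replicate 3. The centromeric histone gene CENPA rose by 0.50, MACROH2A2 by 0.45, H2AZ2 by 0.41 and H2BC26 by 0.34. Reads of replication-dependent histones can be shared between near-identical copies. Histone methylation and Polycomb genes were split, with 17 of 50 higher and 17 lower (median -0.02). The H3K4 demethylase gene KDM5B fell from 383 ± 5.38 to 206 ± 5.93 CPM (-0.89 ± 0.0304), and the demethylase gene KDM2B rose from 24.1 ± 0.313 to 43.7 ± 1.51 CPM (0.86 ± 0.0603). PHF19, which brings Polycomb to H3K36-methylated chromatin, rose by 0.54.

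Of 54 core spliceosome and SMN complex genes 24 rose and 6 fell, with a median of 0.06 and no member at 2-fold. SNRNP40 and PRPF19, a ubiquitin ligase of the spliceosome, rose by 0.26 and 0.25, while the helicase gene DHX38 fell by 1.22-fold and BCAS2 by 1.18-fold.

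Ribosomal protein genes were slightly and widely higher. Of 55 tested genes 36 rose and none fell (median 0.14), and the largest rise was that of RPS20 (0.41). Many of these messengers begin with a 5' terminal oligopyrimidine (TOP) tract, a C followed by further pyrimidines at the first base, through which their translation is known to respond to mTOR and LARP1. The starts of 3 of the members with the largest rises are shown, and their pyrimidine runs differ in length. Each line has 10 bases before and 20 bases from the annotated start (RefSeq, GRCh38.p14), and the pyrimidine run that begins at the start is in capitals.
RPLP0: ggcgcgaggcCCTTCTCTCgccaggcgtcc
RPL3: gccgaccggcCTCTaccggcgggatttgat
RPL10: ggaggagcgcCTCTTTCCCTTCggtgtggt
The first lies at chr12:120201092-120201121 on the minus strand, the next at chr22:39319604-39319633 on the minus strand and the last at chrX:154398367-154398396 on the plus strand. The runs are 9, 4 and 12 bases long, and RPL10 has 3 annotated starts, of which the 1 with the longest run is shown. A tract was counted where the first base at an annotated start was C and at least 5 bases in a row were C or T, read on the gene's own strand. By this rule RPL3, with a run of 4 bases, had no tract. A gene with more than 1 annotated start was counted by its longest run, so more starts gave more chances to count. Of 44 tested ribosomal protein genes with an annotated start, 32 (72.7%) had it, against 776 of 10403 tested genes (7.46%). Among the ribosomal protein genes that rose, 21 of 28 with an annotated start had the tract, a share close to that of the whole family. Of 744 other tested genes with the tract, 251 rose (33.7%) and 181 fell (24.3%). Of 9615 other tested genes with an annotated start and no tract, 28.1% rose and 27.4% fell.

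RPLP0, a protein of the ribosomal stalk, had 1559, 1595 and 1668 CPM in the control libraries and 1964, 2083 and 1965 CPM in the knockdown libraries (0.32 ± 0.0277). RPL3, near the peptidyl transferase centre, rose by 0.31 ± 0.0251 and RPL10, which joins the large subunit late, by 0.31 ± 0.0263. The groups did not overlap for these 3 genes. Summed over the 55 genes, the level was 38070 to 39010 CPM in the control, 42280 to 44120 CPM in the MEP50 knockdown and 35240 to 35920 CPM in the PRMT5 knockdown. In the PRMT5 knockdown 1 member rose and 37 fell against the same controls, and 51 of the 55 were higher with MEP50 than with PRMT5 hairpins (background 20.5%) and none lower. Processed pseudogenes can share reads with this family.

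Mitochondrially encoded genes were lower. Of 13 tested genes 8 fell and none rose (median -0.63). MT-ND5, a subunit of complex I, had 1671, 1225 and 1327 CPM in the control and 716, 697 and 690 CPM in the knockdown, a 2.01-fold fall. Cytochrome b (MT-CYB) had 1389, 901 and 1014 CPM and 583, 556 and 551 CPM (-0.97 ± 0.182), and MT-ND4 fell from 1956 ± 335 to 1156 ± 17.1 CPM (-0.76 ± 0.147). The call of MT-ND4L (-0.77) was lost without MEP50 knockdown replicate 1 (-0.72, edgeR adjusted p = 0.0509). The family summed to 17210, 12410 and 13600 CPM in control libraries 1, 2 and 3 and to 9834, 9534 and 9496 CPM in the MEP50 knockdown libraries. Control library 1 was the highest, and the control libraries varied more than the knockdown libraries. The PRMT5 knockdown libraries held 11710, 13730 and 14800 CPM. Of the 13 genes 6 were lower with MEP50 than with PRMT5 hairpins and none higher (background 19.2% and 20.5% of all tested genes).

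**Figure D5:**
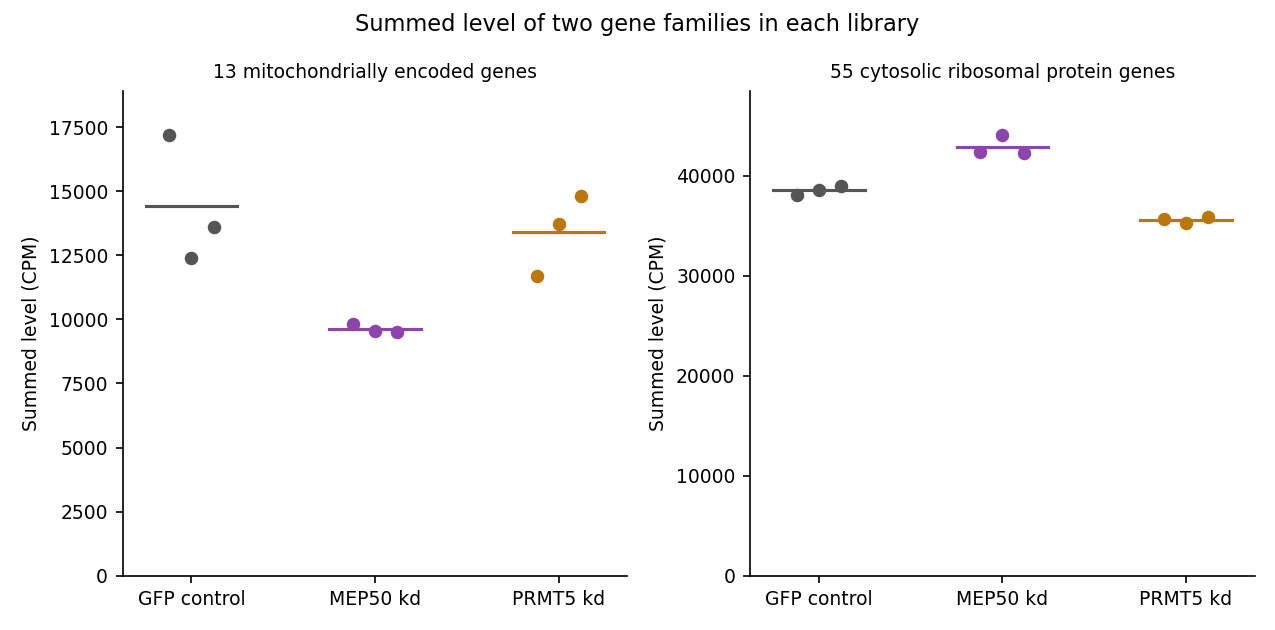
Summed level in CPM (vertical axes from 0) of the 13 mitochondrially encoded genes (left) and the 55 cytosolic ribosomal protein genes (right) in each library of the GFP control, MEP50 knockdown and PRMT5 knockdown, with lines at the means. The MEP50 knockdown is lowest on the left (9496 to 9834 CPM) and highest on the right (42280 to 44120 CPM).

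Genes of the stress factor ATF4 and of the unfolded protein response were more often higher than lower. Of 38 tested genes 24 rose and 8 fell (median 0.23). With MEP50 hairpins 25 were higher and 3 lower than with PRMT5 hairpins (background 20.5% and 19.2% of all tested genes). Asparagine synthetase (ASNS) had 107, 107 and 114 CPM in the control and 226, 238 and 238 CPM in the knockdown (1.09 ± 0.0352). The stress protein gene NUPR1 rose from 15.8 ± 1.64 to 51 ± 3.24 CPM and the lipoprotein receptor gene VLDLR from 13.9 ± 0.877 to 41.1 ± 1.39 CPM. CTH, which makes cysteine by transsulfuration, fell from 18.5 ± 1.62 to 4.33 ± 1.16 CPM (-2.10 ± 0.134). Genes of glycolysis and hypoxia were split, with 15 of 40 higher and 16 lower (median -0.03). The carbonic anhydrase gene CA12 rose from 65.8 ± 0.95 to 198 ± 6.95 CPM and LOXL2, which crosslinks collagen, from 35.9 ± 1.35 to 99 ± 2.33 CPM, while the aldolase gene ALDOC fell from 19.6 ± 0.751 to 7.67 ± 1.8 CPM.

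Of 33 lung, foregut and liver lineage genes 12 rose and 7 fell (median 0.14). HNF4A, a nuclear receptor of liver and gut, had 16.4, 14.6 and 13.5 CPM in the control and 41, 47.3 and 43.8 CPM in the knockdown (1.57 ± 0.0787; PRMT5 knockdown 0.40; difference 1.17 ± 0.0757). The transcription factor gene ONECUT2 fell from 26.9 ± 0.298 to 12 ± 0.463 CPM and the mucin gene MUC16 from 7.23 ± 0.139 to 2.08 ± 0.699 CPM. Of 15 imprinted genes 6 rose and 6 fell (median 0.14). H19 had 31.8, 32.2 and 28.7 CPM in the control, 0.386, 0.748 and 0.704 CPM in the MEP50 knockdown and 4.26, 4.51 and 4.0 CPM in the PRMT5 knockdown, and all 3 groups were apart (difference between the knockdowns -2.76 ± 0.201). ZDBF2 fell from 39 ± 1.66 to 16.4 ± 1.48 CPM and the transporter gene SLC22A18 from 26.4 ± 1.56 to 16.9 ± 0.894 CPM, while MEST rose from 56.6 ± 1.76 to 82.4 ± 3.02 CPM.

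Ligands and feedback genes of EGFR and MAPK signalling leaned lower. Of 33 tested genes 8 rose and 16 fell (median -0.25). The receptor gene EGFR had 98.5, 99.1 and 104 CPM in the control libraries and 158, 160.2 and 159.9 CPM in the knockdown libraries, a rise of 0.67 ± 0.0349. Its ligand genes EGF and HBEGF fell from 2.84 ± 0.429 to 0.682 ± 0.125 CPM and from 10.3 ± 0.068 to 4.53 ± 0.684 CPM, and NRG4, a ligand of ERBB4, from 10.9 ± 1.01 to 3.85 ± 0.159 CPM. PHLDA1, induced by growth factors, fell from 257 ± 5.29 to 104 ± 2.34 CPM (-1.30 ± 0.0352). Of 22 AP-1 and immediate early factors 7 rose and 10 fell (median -0.15). The orphan receptor gene NR4A1 fell from 114 ± 1.11 to 45.7 ± 1.23 CPM (-1.32 ± 0.0487), MAFF from 8.31 ± 0.53 to 3.51 ± 1.5 CPM and IER3 from 11 ± 1.32 to 4.91 ± 0.921 CPM. FOSL2, a FOS-family subunit of AP-1, rose from 77.5 ± 2.61 to 167 ± 9.69 CPM (1.11 ± 0.0391).

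Other signalling groups had members on both sides. Of 31 targets and components of YAP and TEAD 14 rose and 8 fell (median 0.07), with the membrane repair protein gene MYOF from 232 ± 1.49 to 411 ± 10.7 CPM and the forkhead factor FOXF2 from 12.4 ± 1.22 to 27 ± 1.52 CPM. Of 38 Wnt genes 13 rose and 13 fell (median -0.06, which turned to 0.0014 without GFP control replicate 3). The secreted Wnt antagonists SFRP1 and SFRP4 rose from 4.52 ± 0.787 to 13.1 ± 1.91 CPM and from 1.92 ± 0.232 to 4.74 ± 0.433 CPM. The receptor gene RYK rose from 34.9 ± 1.08 to 71.3 ± 2.99 CPM and FZD3 fell from 43.5 ± 2.74 to 20.1 ± 1.51 CPM. Of 25 Notch genes 11 rose and 6 fell (median 0.14), and 3 fell without MEP50 knockdown replicate 1. The receptor gene NOTCH3 fell from 160.5 ± 2.12 to 73.2 ± 3.32 CPM (-1.14 ± 0.0401). The target gene HEY1 rose from 1.43 ± 0.158 to 4.45 ± 1.08 CPM (1.63 ± 0.235; PRMT5 knockdown -0.17; difference 1.80 ± 0.236), the coactivator gene MAML2 from 5.93 ± 0.959 to 17 ± 0.786 CPM and the glycosyltransferase gene LFNG from 1.05 ± 0.451 to 2.13 ± 0.184 CPM.

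Of 45 actin, myosin and small GTPase genes 29 rose and 7 fell (median 0.24). Tropomyosin 1 (TPM1) had 111, 116 and 115 CPM in the control and 267, 248 and 246 CPM in the knockdown (1.15 ± 0.0332). The CDC42 effector gene CDC42EP3 rose from 11.2 ± 0.528 to 45.3 ± 0.609 CPM and the small GTPase gene RND1 from 3.22 ± 0.12 to 13.2 ± 0.917 CPM (2.04 ± 0.13; PRMT5 knockdown 0.65; difference 1.39 ± 0.121), while ARHGAP24, which inactivates Rac, fell from 1.59 ± 0.232 to 0.542 ± 0.176 CPM. Of 38 growth factor receptor and related genes 14 rose and 12 fell (median 0.01, whose sign turned with upper-quartile scaling, at -0.0054, library totals, at -0.0046, a filter of 1 CPM in 3 libraries, at -0.0019, and the 6 libraries alone, at -0.0095). FGFR3 fell from 17.8 ± 1.06 to 8.45 ± 1.07 CPM and the secreted IGF-binding protein gene IGFBP1 from 12.2 ± 0.498 to 4.05 ± 0.59 CPM. Of 17 metastasis suppressor genes 6 rose and 5 fell (median 0.07). With AKAP12 above, MTSS1, a membrane-bending scaffold, had the other large change, from 1.2 ± 0.0443 to 7.65 ± 0.518 CPM (2.67 ± 0.194; PRMT5 knockdown 0.72; difference 1.95 ± 0.177). The adhesion molecule gene CADM1 rose from 91.1 ± 3.85 to 139.8 ± 2.47 CPM, and CASP8 fell from 53.4 ± 0.588 to 41.2 ± 1.94 CPM.

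The MEP50 knockdown also differed from the PRMT5 knockdown, in which the partner was lowered instead. Of 14582 genes 5787 (39.7%) differed between the knockdowns, 2991 higher (20.5%) and 2796 lower (19.2%) with MEP50 hairpins, and 3917 (26.9%) were also called between MEP50 knockdown and control. Falls that were near absent in the PRMT5 knockdown included those of DAZAP2 and YWHAG. YWHAG was called there too, at -0.15 (edgeR adjusted p = 4.12e-05). DAZAP2, which encodes a small proline-rich adaptor, had 207, 203 and 194 CPM in the control, 29.8, 34.1 and 35.5 CPM in the MEP50 knockdown and 200.5, 195 and 184 CPM in the PRMT5 knockdown. YWHAG, the gamma form of the 14-3-3 proteins that bind phosphoserine, had 412, 421 and 417, 138, 129 and 131 and 383, 375 and 372 CPM in the same groups. Both genes lay in a narrow low range in the 3 MEP50 libraries alone, and the knockdowns differed by -2.54 ± 0.0467 and -1.51 ± 0.0306 (edgeR adjusted p = 3.25e-32 and 1.69e-32). CPEB1, which controls poly(A) tails in the cytoplasm, had 0.80 ± 0.208 CPM with MEP50 and 4.39 ± 0.244 CPM with PRMT5 hairpins, against 4.8 ± 0.598 CPM in the control. The BCL2 family gene BCL2A1 rose less with MEP50 hairpins (0.693 ± 0.252 against 3.61 ± 0.343 CPM), from 5 reads in the control (49 reads with MEP50, count ratio 11.3, 95% counting interval 4.54 to 36.5).

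Some genes were higher with MEP50 than with PRMT5 hairpins and had moved in opposite directions from the control. CDH17, an intestinal cadherin, had 22.1, 22.7 and 24.9 CPM in the control, 66.7, 68.5 and 72.1 CPM in the MEP50 knockdown and 13.2, 11.5 and 12.5 CPM in the PRMT5 knockdown. DIO2, the deiodinase that activates thyroid hormone, had 2.71, 3.34 and 3.62, 16.6, 12.7 and 12.8 and 2.21, 1.84 and 1.83 CPM in the same order. For both genes the control lay between the knockdowns, with differences of 2.48 ± 0.0675 and 2.84 ± 0.155 (edgeR adjusted p = 3.08e-28 and 1.90e-18). LUM stood at 7.89 ± 0.167 and 0.628 ± 0.24 CPM in the knockdowns (difference 3.67 ± 0.209), and the noncoding RNA SIRLNT at 13.4 ± 0.877 and 2.3 ± 0.0923 CPM (difference 2.55 ± 0.131). SCARA5, a ferritin receptor gene, fell in both, to 3.73 ± 0.418 and 0.778 ± 0.229 CPM from 10.8 ± 1.31 CPM.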

How the data were processed

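RNA of 9 A549 libraries was depleted of rRNA and sequenced with a stranded protocol, per the labels' protocols. The authors deposited 1 table of raw read counts per Ensembl gene identifier. Per the submitters' processing notes, Trim Galore, STAR and HTSeq were used with hg19. Versions and the strand setting of the counting are not given in the sources used here. The authors' deposited comparison tables held, per the file headers, a mean scaled signal per gene, log2 fold changes of DESeq2 and edgeR, a test score and p-values with their adjusted values, and served only as a check.

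Of 51796 genes, 26748 had a read in some library, and 14582 passed edgeR's filterByExpr. The 5 HTSeq lines that name no gene entered neither the library totals nor the tests. All 9 libraries entered 1 fit with the group as the only term (edgeR 4.0.16, R 4.3.3, TMM scaling, robust quasi-likelihood test, Benjamini-Hochberg adjustment over all tested genes, threshold 0.05). The biological coefficient of variation was 0.0395. SE is the size of the log2 fold change divided by the root of the test's F value and can be narrower than counting error for genes with few reads. Counting intervals (95%) cover counting error only. The script was tested on simulated data. Replicates carried the same numbers in each group, but same-numbered libraries did not deviate together by the limit set (correlations 0.0442 to 0.0517, limit 0.1), so no block was used.

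Gene names matched 36583 identifiers to a symbol. The 47 gene lists held 1478 names, of which 1465 matched and 1212 were tested. The members and lists were chosen with earlier results of these data known, and no list was tested as a set. Genes were named by rule: both targets, the 12 largest rises and falls and the 8 most counted of at least 2-fold without overlap, up to 4 called members of each list (mean of at least 1 CPM), 20 fixed genes and the 6 largest differences each way between the knockdowns. The alternatives changed the scaling (RLE, upper quartile, library totals), the tool (DESeq2 1.42.0), the filter (none, or 1 CPM in 3 libraries), the design (replicate block, 6 libraries alone) or left out 1 replicate at a time. Some genes that the rule names, and 1 list, are not reported here. TUBB3, PDGFRA, PMVK, RIOK1, PTGES, PTGES2, PTGES3 and the markers with few reads were named after their values were seen.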

Additional observations from a re-analysis of the deposited data

How the results depend on the processing

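Neither count of called genes moved by over 1.5 times under any alternative. Against the control the number of genes that rose ranged from 3453 to 3874 and the number that fell from 3342 to 3879. The split leaned to rises with TMM (3865 higher, 3675 lower) and to falls with upper-quartile scaling (3664 and 3879) and library totals (3673 and 3867). Of 206 named genes, 202 to 205 kept their direction and their side of the threshold under each alternative. Calls were lost under some alternatives for PRMT2, NLRC5, CBX7, MT-ND4L, PDGFB and ITGAM, and the cause was not tested. With no low-count filter 24 of 46 list medians moved by more than their replicate spread, by at most 0.91, since genes with few reads entered them. With a replicate block 3874 genes rose and 3675 fell, and 205 of 206 named genes kept their call (PRMT2 did not). Every MEP50 library correlated best with the control library of its own number, a hint from the data and not from the design. Depth limits the genes under 1 CPM, of which 21.5% were called, against 72.0% of those at 100 CPM or more. In 1 hairpin group per target, effects of the hairpin cannot be told apart from loss of its target.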

Other observations

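Calls were more frequent among well-counted genes, and their changes were smaller. Of 1903 genes with a mean under 1 CPM, 21.5% were called, with a median absolute log2 fold change of 1.61 among the called. Of 2407 genes at 100 CPM or more, 72.0% were called, with a median of 0.23, and 3.46% of these calls reached 2-fold. By gene type, 57.3% of 12152 protein-coding genes, 28.4% of 919 long noncoding genes and 16.1% of 840 pseudogenes were called, and the median level of the last groups was 1.03 and 1.31 CPM against 32.2 CPM for protein-coding genes.

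Rises and falls were spread over the nuclear chromosomes, where from 21.2% (chromosome 19) to 33.9% (chromosome 18) of tested genes rose. In 527 overlapping windows of 50 neighbouring tested genes, the median log2 fold change ran from -0.21 (SLC2A3 to EPS8 on chromosome 12, 9 higher and 16 lower) to 0.18 (MRPL42 to HSP90B1, also on chromosome 12, 24 higher and 13 lower). Neighbouring windows share genes and are not separate regions. For the lowest window the median was -0.07 in the PRMT5 knockdown. Some other windows were more one-sided, such as PDZK1 to HORMAD1 on chromosome 1 (23 higher and 3 lower) and JRK to ADCK5 on chromosome 8 (8 higher and 20 lower). Gene order came from GENCODE 29 on GRCh38, which is not the build of the counts, so no coordinates of these windows are given.

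The authors' deposited table of the MEP50 knockdown held 6833 genes, 3542 higher and 3291 lower by its edgeR values. Of these, 6821 were tested here, 6809 were called in the same direction, 12 were not called and 0 were called in the opposite direction, and 731 genes called here were not in that table. Its counts were identical to those used here for 6832 genes, so the match in direction is not independent evidence. For WDR77 the authors' deposited table gave log2 fold changes of -1.61 (DESeq2) and -1.64 (edgeR).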
